A study of Mus musculus with 309 samples.

Results

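The expression of 10 genes of MHC class I presentation and peptide loading was followed across 309 mouse mammary tumours of 24 models. The 10 genes were taken by symbol from the 55291 gene symbols of the count table: H2-K1, H2-D1, B2m, Tap1, Tap2, Tapbp, Nlrc5, Psmb8, Psmb9 and Psmb10. All 10 passed the filter on low counts. Poly(A) RNA had been sequenced from frozen tumours in 5 arms, each named in the labels: Untreated (64 tumours, 18 models), Trametinib (65 tumours, 22 models), Erlotinib (66 tumours, 22 models), Carboplatin + Paclitaxel (66 tumours, 22 models) and anti-PD1 + anti-CTLA4 (48 tumours, 16 models). Trametinib blocks the kinase MEK and erlotinib the receptor EGFR, carboplatin with paclitaxel is a cytotoxic pair, and the antibodies block checkpoint receptors of T cells. These made 100 groups of model and treatment, most with 3 tumours. The labels name the models and give no genotype, strain, age, dose or time of collection, and they do not say whether tumours of a group came from separate mice or whether a model is a single cell line. The p-values therefore measure the spread between these tumours. In bulk tumour RNA, fewer cells that express a gene and less RNA per cell cannot be told apart.

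MHC class I molecules show peptides from inside the cell to CD8 T cells and are also read by NK cells. The proteasome cuts proteins into peptides, and interferon switches in the catalytic subunits Psmb8, Psmb9 and Psmb10 in place of Psmb5, Psmb6 and Psmb7. The transporter made of Tap1 and Tap2 moves peptides into the endoplasmic reticulum, where tapasin (Tapbp) bridges it to the class I heavy chain (H2-K1 or H2-D1) and its light chain beta-2 microglobulin (B2m). Nlrc5 is a transactivator that acts with the RFX complex, CREB family factors and NF-Y at the W/S, X1, X2 and Y boxes of class I promoters. Loss of these genes is a known route by which tumours evade T cells, and interferon gamma raises most of them.

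Of the members, 7 lie on chromosome 17, B2m on chromosome 2, and Nlrc5 and Psmb10 on chromosome 8. On mm10, Psmb9 (17:34181987-34187764, minus strand), Tap1 (17:34187553-34197225, plus strand), Psmb8 (17:34197721-34201454, plus strand) and Tap2 (17:34203527-34216321, plus strand) are neighbours in the MHC. H2-K1 (17:33996017-34000347, minus strand), Tapbp (17:33915899-33929292, plus strand) and H2-D1 (17:35262730-35267499, plus strand) lie on the same chromosome. B2m is at 2:122147686-122153083 (plus strand), Nlrc5 at 8:94434356-94527272 (plus strand) and Psmb10 at 8:105935735-105938444 (minus strand). RefSeq promoter windows (GRCm38.p6, the 250 bases before each gene's start) were found for 8 of the 10 members, all but Nlrc5 and Tap2. The start is RefSeq's own, which for all of them but H2-K1 lies inside the span given above, so those windows overlap the gene as annotated here. The windows of H2-K1 and B2m are shown in their last 160 bases because these 2 chains form the molecule itself. Capitals mark, in H2-K1, a kappa B motif of 11 bases, AANNGAAA read on the opposite strand (an IRF motif), TGACG (the core of the X2 box) and ATTGG (the core of the Y box), and in B2m AANNGAAA, TGACG and ATTGG.
H2-K1 promoter, chr17:34000348-34000507, minus strand: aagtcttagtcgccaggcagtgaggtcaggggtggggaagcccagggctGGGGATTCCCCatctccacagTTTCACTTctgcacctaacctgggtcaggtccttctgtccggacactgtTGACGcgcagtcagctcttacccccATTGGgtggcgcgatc
B2m promoter, chr2:122147527-122147686, plus strand: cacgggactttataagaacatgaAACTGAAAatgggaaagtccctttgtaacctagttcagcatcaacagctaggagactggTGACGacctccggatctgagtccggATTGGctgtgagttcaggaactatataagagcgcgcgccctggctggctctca

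Only H2-K1, H2-D1 and B2m, of the 8 members with a window, held TGACG and ATTGG with 20 bases between them. Both strands were searched, and 30 of 32841 RefSeq windows of the same length (0.0913%) held this pair, among them H2-M3, a non-classical class I gene. No other spacing was searched, so this share is of that exact pattern and does not measure how particular it is to the members. Singly, TGACG was in 17.77% and ATTGG in 33.86% of the windows, AANNGAAA in 21.31% and the kappa B motif in 10 windows. The spaced pair of the 3 genes is set out below, with the cores in capitals.
H2-K1 X2 to Y, chr17:34000359-34000388, minus strand: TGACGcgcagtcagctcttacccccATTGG
H2-D1 X2 to Y, chr17:35262993-35263022, plus strand: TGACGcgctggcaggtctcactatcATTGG
B2m X2 to Y, chr2:122147609-122147638, plus strand: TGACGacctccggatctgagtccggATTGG
H2-K1 and H2-D1 had the same letter at 23 of these 30 positions, against 13 for H2-K1 with B2m and 12 for H2-D1 with B2m, each count including the 10 bases of the cores. The kappa B and IRF motifs of H2-K1 (chr17:34000430-34000458) and H2-D1 (chr17:35262923-35262951) form a stretch of 29 bases in which 28 are the same, and B2m lacks that kappa B motif in its window. Tap1 and Psmb9 are read from opposite strands of a shared stretch of 225 bases, so their windows are largely 1 sequence. A motif match here is a description of letters, not of binding.

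Library totals ran from 12.1 M to 226 M counts, with a median of 78.6 M, and medians by arm were 76.9 M untreated, 39.3 M trametinib, 34.3 M erlotinib, 103 M carboplatin plus paclitaxel and 113 M antibodies. The libraries carry running numbers, and models were called near in a comparison when the mean numbers of the compared arms lay within 100. The mean takes in every untreated library of a model, so a few early ones can make it far. KPB1-B with trametinib, erlotinib or carboplatin plus paclitaxel, and C3-TAG with the antibodies, counted as far. Some of their untreated libraries nevertheless adjoin the treated ones in number. In the carboplatin plus paclitaxel arm, 3 libraries of KPB25L-UV have names that start with KPB25L; the titles were followed. The summed level of 7 epithelial markers was 13.1 to 16.5 CPM in untreated T11-APOBEC tumours and 24.2 to 56.4 CPM in T11, against 4412 to 5496 CPM in MMTV-Neu. Levels below are CPM (counts per 1 M library counts) after 1 scaling over all tumours. H2-K1 and H2-D1 are polymorphic and share reads with near-identical class I copies, and mm10 represents a single strain, so their levels between models are uncertain where strains differ.

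In untreated tumours, all 10 genes differed among the 16 models with at least 3 untreated tumours (edgeR quasi-likelihood F-test, adjusted p from 3.33e-15 for Psmb10 to 1.67e-09 for Tap2). So did 98.9% of the 22779 genes tested, so this call alone says little about the members. The levels were lowest in KPB1-B for 7 of the 10 genes by mean CPM. They were highest in MMTV-Neu, p53RB-426, p53RB-626, K14-TRT, T11-APOBEC or KPB25L-UV, depending on the gene.

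**Figure D1:**
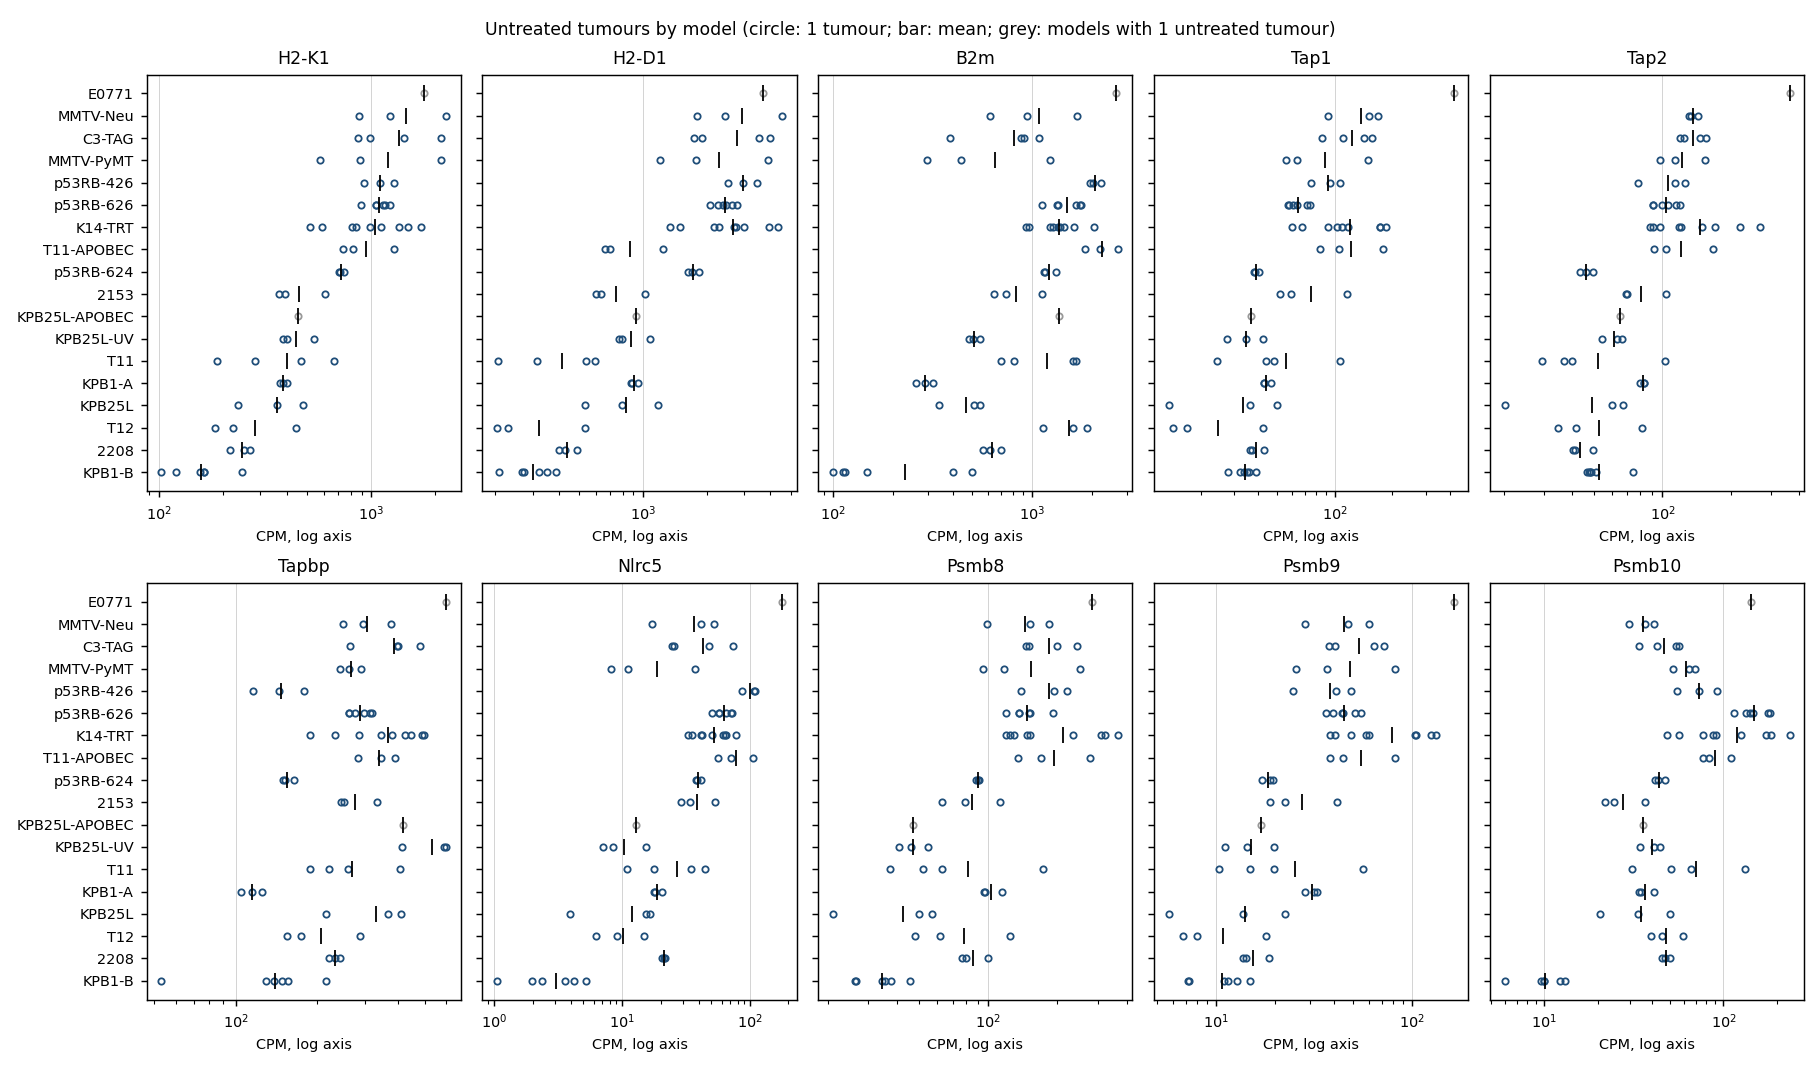
Level of each gene in every untreated tumour, by model, as CPM on a log axis (circle, 1 tumour; bar, group mean; grey, the models with 1 untreated tumour, E0771 and KPB25L-APOBEC). KPB1-B sits at the low end for 7 genes, down to 3.07 CPM for Nlrc5, and the single E0771 tumour is above every model mean for 9 genes, the exception being Psmb10.

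Among the chains of the molecule, B2m was 2249 ± 438 CPM (SD, n = 3) in T11-APOBEC and 229 ± 174 CPM (SD, n = 6) in KPB1-B. Between them came p53RB-426 (2064 ± 135, n = 3), T12 (1543 ± 379, n = 3), p53RB-626 (1499 ± 267, n = 6), K14-TRT (1363 ± 340.0, n = 9), p53RB-624 (1214 ± 97.7, n = 3), T11 (1196 ± 512, n = 4) and MMTV-Neu (1082 ± 550.0, n = 3). Lower were 2153 (836 ± 249, n = 3), C3-TAG (814 ± 297, n = 4), MMTV-PyMT (654 ± 499.8, n = 3), 2208 (629 ± 67.5, n = 3), KPB25L-UV (512 ± 34.9, n = 3), KPB25L (467 ± 111, n = 3) and KPB1-A (290.0 ± 29.8, n = 3). No pair of neighbours in this order differed in the edgeR contrast (15 pairs), so the order is one of ends and a middle rather than of ranks. The heavy chain H2-K1 ran from 159 ± 49.6 CPM (n = 6) in KPB1-B to 1452 ± 715 (n = 3) in MMTV-Neu, a ratio of 9.14. H2-D1 ran from 301 ± 64.1 CPM in KPB1-B to 2975 ± 468 in p53RB-426, a ratio of 9.87. Of its 15 neighbouring pairs, 1 differed, p53RB-624 (1719 ± 102 CPM) above KPB1-A (903 ± 36.0 CPM).

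KPB1-B held 6 untreated tumours, and B2m separated them by library number. B2m was 148, 499.5 and 399.6 CPM in the 3 earlier libraries and 115, 99.9 and 113 CPM in the last 3. The groups did not overlap, and B2m was lower in the last set (log2 difference -1.68, adjusted p = 0.00139, edgeR), as 10.7% of 28928 genes differed in either direction. The other 9 members did not differ between these sets, with H2-D1 at 209, 268 and 350.3 CPM against 322, 273 and 386 CPM. In p53RB-626, whose 6 untreated tumours also fall in a pair of sets, no member differed, beside 2.26% of genes.

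Of the members, the transporter subunit Tap2 had the narrowest range between model means, and its partner Tap1 a wider one. Tap1 ran from 24.6 ± 15.5 CPM (n = 3) in T12 to 137 ± 39.5 (n = 3) in MMTV-Neu, and Tap2 from 43.5 ± 4.94 (n = 3) in 2208 to 147 ± 62.4 (n = 9) in K14-TRT. Over 11559 genes whose mean log2 CPM was 2 or more, the median range between model means was 2.02 on the log2 scale. Tap2, with a range of 1.66, was wider than 32.5% of those genes, Tap1, with 2.60, wider than 67.1%, and Nlrc5, with a range of 5.20, was wider than 91.9%. Tapbp had another order than the rest: its highest mean was 533 ± 106 CPM in KPB25L-UV, a model near the low end for Psmb8 (47.2 ± 6.94 CPM) and Nlrc5 (10.3 ± 4.38 CPM). Its lowest was 115 ± 10.6 CPM in KPB1-A.

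Nlrc5, the transactivator, was 101 ± 12.5 CPM (n = 3) in p53RB-426 and 3.07 ± 1.54 CPM (n = 6) in KPB1-B, a ratio of 32.9. KPB1-B was below its nearest neighbour T12 (10.1 ± 4.46 CPM, adjusted p = 0.000309, edgeR), the only neighbouring pair of 15 that differed. The immunoproteasome subunit Psmb10 showed a similar gap, with KPB1-B (10.1 ± 2.47 CPM) below 2153 (27.6 ± 7.83 CPM, adjusted p = 7.56e-05, edgeR), again 1 pair of 15. Its highest mean was 149 ± 26.1 CPM in p53RB-626, a ratio of 14.7 to KPB1-B. Psmb8 ran from 34.4 ± 7.25 CPM in KPB1-B to 212 ± 98.2 in K14-TRT and Psmb9 from 10.7 ± 3.06 in KPB1-B to 79.1 ± 37.3 in K14-TRT. The single untreated E0771 tumour held 2639.6 CPM of B2m, 419.9 of Tap1, 365 of Tap2, 179 of Nlrc5 and 164 of Psmb9, with no replicate beside it.

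Per length, the light chain exceeded the other members. The median over untreated tumours was 1279.6 CPM per kb of summed exons for B2m, 474 for H2-D1, 233 for H2-K1 and 72.4 for Tapbp. The levels were 34.3 for Psmb8, 29.0 for Psmb10, 23.6 for Tap2, 10.7 for Tap1, 8.80 for Psmb9 and 4.06 for Nlrc5. The summed length counts every annotated exon, including those of rare isoforms, so genes with many isoforms are set low by it.

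The 6 models 4T1, 9263, 2224, 2225, 2250 and 2336 had no untreated tumours, and among them 2336 had the lowest group mean of the 100 groups for 9 members, B2m being lowest in KPB1-B with erlotinib. With erlotinib, the 3 tumours of 2336 had 78.4, 42.0 and 47.0 CPM of H2-K1, and with trametinib 66.9, 57.3 and 100.2 CPM. With carboplatin plus paclitaxel they had 202, 378 and 223 CPM, without overlap. Psmb9 was 0.942 to 2.75 CPM with erlotinib, 0.983 to 3.19 with trametinib and 12.7 to 31.9 with carboplatin plus paclitaxel. Ptprc, the pan-leukocyte marker CD45, moved the same way, at 4.53 ± 1.37 CPM (SD, n = 3) with erlotinib, 3.31 ± 1.04 with trametinib and 37.1 ± 7.84 with carboplatin plus paclitaxel. The part of leukocytes in these levels was not tested, and the library numbers of the arms also lie far apart.

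H2-Ea, an MHC class II chain that some mouse MHC haplotypes do not express, split the models. In 11 models (T11, T11-APOBEC, T12, 4T1, 9263, 2153, 2208, 2250, 2225, 2224 and 2336) every tumour had 30.5 to 91.7 counts of H2-Ea per 100 of H2-Aa. In the other 13 no tumour passed 1.81. The median ratio of H2-K1 to H2-D1 CPM per model was 0.55 in 2208 to 1.22 in 2225 among the 11 models, and 0.34 in E0771 to 0.53 in KPB1-B among the 13. The 2 sets of medians did not overlap. Whether allele differences from mm10 change the counts of either gene was not tested.

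**Figure D2:**
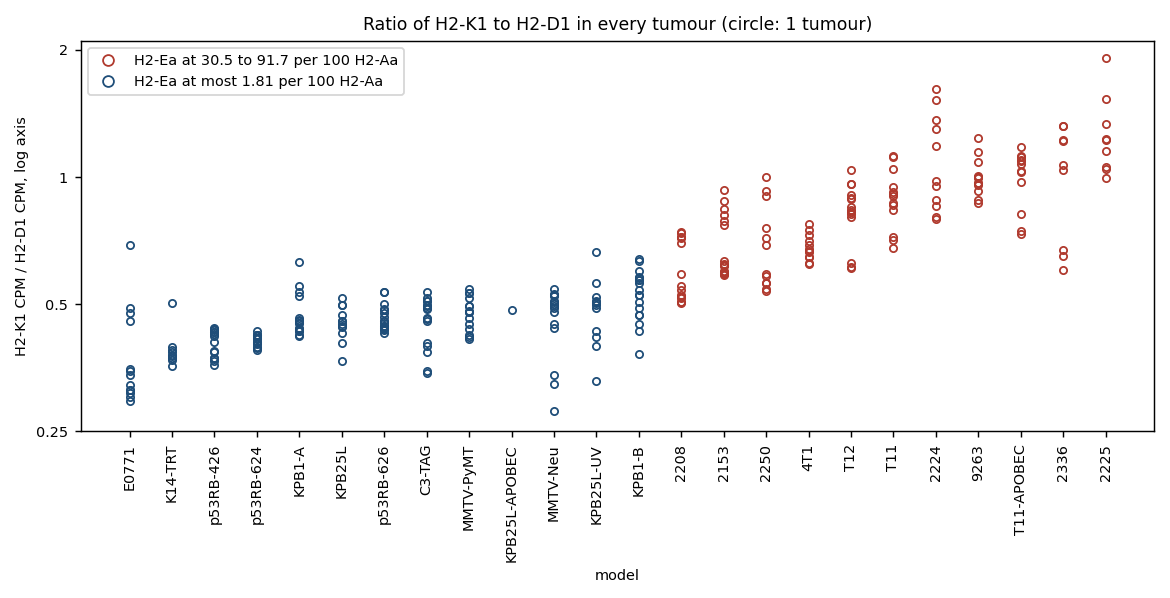
Ratio of H2-K1 to H2-D1 CPM in every tumour (circle, 1 tumour) by model, on a log axis, coloured by whether H2-Ea was at least 30.5 or at most 1.81 per 100 counts of H2-Aa. Medians of the first set start at 0.55 and those of the second end at 0.53.

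The members moved together from group to group. Over the 100 group means, Pearson's r of log2 CPM was 0.95 for H2-K1 with H2-D1, 0.91 for Tap1 with Psmb9 and 0.90 for Psmb8 with Psmb9. Over the 309 tumours after subtracting each group's mean these were 0.96, 0.92 and 0.95. Tapbp and B2m followed the others least over group means, with mean r of 0.58 and 0.65. Nlrc5 and Psmb10 had r = 0.76 over group means and 0.45 within groups. These are descriptions: the points share libraries, depth and cell content, and H2-K1 and H2-D1 share reads.

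Among 11020 other genes, those most like the mean of the members over group means included Igtp (r = 0.87), Gbp2 (0.87), Irgm2 (0.83), Gbp3 (0.82), H2-Q7 (0.81), Parp10 (0.81) and Herc6 (0.80). Within groups the nearest were H2-Q6 (0.90), H2-T10 (0.89), H2-Q7 (0.89), H2-T22 (0.88), H2-K2 (0.87), Igtp (0.85), H2-Q4 (0.85) and Sp110 (0.82). The first list holds GTPases induced by interferon, and the second is mostly class I copies that can share reads. Cd8a, of cytotoxic T cells, had r = 0.76 over group means and 0.65 within groups, and the epithelial marker Epcam -0.30 and 0.10. Rfx5, a DNA-binding subunit of RFX, had -0.48 and -0.23.

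Trametinib was compared with untreated tumours in 16 models (48 against 54 tumours), with the model as a factor. Calls used edgeR's quasi-likelihood test with p-values adjusted over all genes by Benjamini and Hochberg and a threshold of 0.05. Of the members, 5 were higher and none lower: Tapbp, H2-K1, H2-D1, Psmb8 and Tap2. Of 18014 genes, 19.1% were called higher and 21% lower. Tapbp was higher in 14 of 16 models (log2 fold change 0.40 ± 0.06 SE, adjusted p = 4.84e-07), from a median of 256 CPM (52.8 to 601) untreated to 350.1 (150.1 to 658). H2-K1 was higher in 13 of 16 models (0.35 ± 0.10, adjusted p = 0.00184), from a median of 590.4 CPM (102 to 2254) to 739 (218 to 2407). The ranges of the arms overlapped widely for both genes. H2-D1 (0.30 ± 0.09), Psmb8 (0.29 ± 0.09) and Tap2 (0.26 ± 0.08) had adjusted p of 0.00503, 0.0098 and 0.00564.

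B2m (0.23 ± 0.10, adjusted p = 0.0734), Tap1 (0.20 ± 0.09, 0.0675) and Psmb9 (0.25 ± 0.11, 0.06) lay beside these in size and did not pass. Nlrc5 had 0.08 ± 0.12 and Psmb10 0.11 ± 0.09. In the 8 models whose arms were near in library number, Tapbp (0.30, adjusted p = 0.00437) and H2-D1 (0.26, 0.0465) were the 2 members called. H2-K1 had 0.24 there (0.051) and Nlrc5 -0.08. With 1 difference per model as the unit 1 member was called, with replicate 1 of every group left out 3, and without E0771, MMTV-PyMT or T11-APOBEC 8 each time.

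Against erlotinib, which was available in 22 near models (65 against 66 tumours), trametinib tumours had more of 9 of the 10 members, where 13.3% of 16778 genes were called higher and 13.2% lower. Tapbp was 0.35 ± 0.05 on the log2 scale (adjusted p = 5.95e-08) and higher in 20 of 22 models. Psmb9 (0.42 ± 0.09), Tap1 (0.37 ± 0.07), Psmb8 (0.36 ± 0.08), H2-K1 (0.36 ± 0.07) and Tap2 (0.35 ± 0.07) were as large or larger. H2-D1 (0.27 ± 0.07), Nlrc5 (0.24 ± 0.09) and B2m (0.21 ± 0.07) were smaller, and Psmb10 (0.18 ± 0.08, adjusted p = 0.0675) did not pass. With 1 difference per model, 3 members were called. Erlotinib against untreated tumours called 0 of 10 members in 16 models, beside 4.73% of 17954 genes higher and 5.25% lower. Psmb9 (-0.24 ± 0.12) and Tap1 (-0.21 ± 0.10) had an unadjusted p under 0.05, with adjusted p of 0.184 and 0.188, and DESeq2 also called 0 members.

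Carboplatin plus paclitaxel gave the widest set, with 9 of 10 members higher in 16 models (48 against 54 tumours), beside 15.5% of 18401 genes higher and 11.2% lower. H2-D1 (0.60 ± 0.13, adjusted p = 0.00033) and H2-K1 (0.52 ± 0.14, 0.00302) were each higher in 13 of 16 models. H2-D1 went from a median of 979.7 CPM (203 to 4552) untreated to 1920.5 (214 to 6171), with overlapping ranges. Psmb9 (0.54 ± 0.17), Tap1 (0.51 ± 0.13), Psmb8 (0.46 ± 0.13) and Psmb10 (0.45 ± 0.14) followed, then Nlrc5 (0.37 ± 0.14), Tap2 (0.36 ± 0.12) and Tapbp (0.34 ± 0.09). B2m was the 1 member not called (0.23 ± 0.13, adjusted p = 0.17). Depth and library number moved with this contrast, and the part of either was not tested. In the 5 near models, which hold fewer tumours, 0 of 17241 genes passed. The members' log2 differences there ran from -0.01 (Psmb10) to 0.42 (H2-D1). Near was set by library number and not by depth, and E0771, with 1 untreated tumour, is among these 5. The mean difference per model of H2-D1 was 0.19 ± 0.18 (SE) in those 5 and 0.64 ± 0.18 in the 11 others, and with 1 difference per model 0 members were called. The count was 5 without each group's replicate 1 and 1 without its replicate 3.

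The antibodies against PD1 and CTLA4 were compared in 12 models (36 against 41 tumours). Tap1 (0.41 ± 0.12, adjusted p = 0.0197; 9 of 12 models) and Tapbp (0.26 ± 0.08, adjusted p = 0.0273; 8 of 12 models) were higher, where 7.36% of 18371 genes were higher and 6.22% lower. Psmb9 (0.43 ± 0.15, adjusted p = 0.0521), Psmb8 (0.37 ± 0.13, 0.056), H2-D1 (0.32 ± 0.13, 0.0778) and H2-K1 (0.31 ± 0.14, 0.113) did not pass, and B2m was -0.08 ± 0.16. The count rests on single models: it was 9 without MMTV-PyMT, 4 without E0771, and 0 without KPB1-B, T12 or p53RB-426. In the 2 near models, MMTV-Neu and MMTV-PyMT, none was called, with Tap1 at -0.02 and Tapbp at -0.01. These 2 models moved in opposite directions, with medians over the members of 0.91 and -1.59, so the near values average unlike responses. With 1 difference per model 0 members were called. Without each group's replicate 1, 2 or 3 the count was 1, 0 and 0. Against carboplatin plus paclitaxel (16 models, 48 tumours in each arm), the antibody arm had 0 members called or at an unadjusted p under 0.05, where 21.1% of 18705 genes were called in either direction, and DESeq2 called 0. The lowest adjusted p was 0.165, for B2m (-0.24 ± 0.12). The treatments share the untreated tumours, so these columns of values are not independent of each other.

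**Figure D3:**
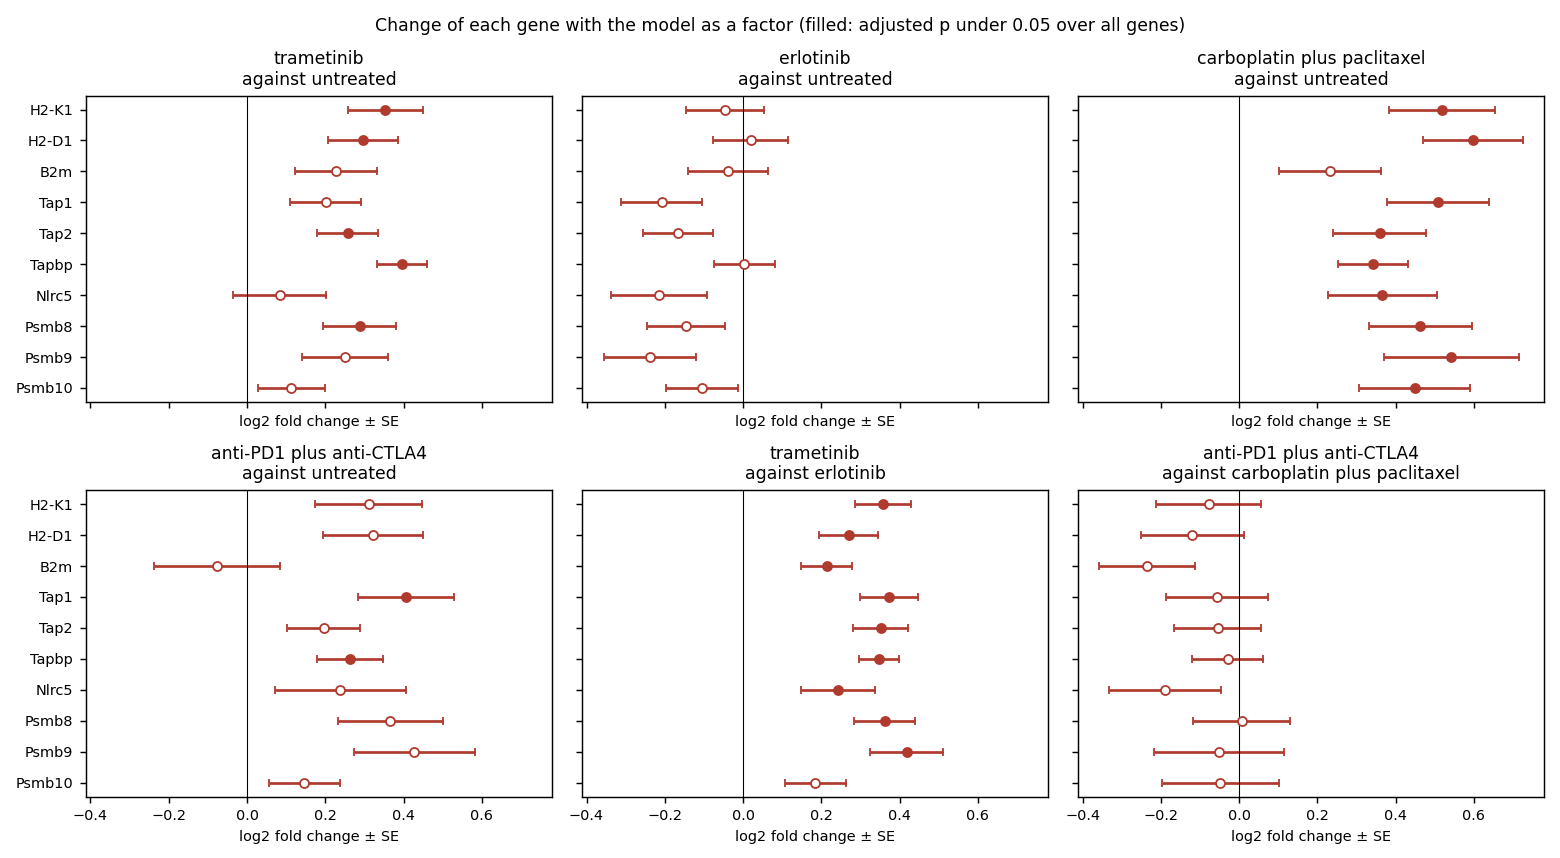
Log2 fold change ± SE of each gene in the 6 comparisons with the model as a factor, with filled points at adjusted p under 0.05. Trametinib and carboplatin plus paclitaxel have 5 and 9 filled points, the antibodies 2, erlotinib 0, trametinib against erlotinib 9 and the antibodies against carboplatin plus paclitaxel 0.

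The median change of the 10 members was 0.25 with trametinib, -0.12 with erlotinib, 0.46 with carboplatin plus paclitaxel and 0.29 with the antibodies, while the medians of all genes tested were between -0.01 and 0.01. Of the non-classical and other class I-like genes, 8 of 16 were higher and 0 lower with trametinib, 2 of 16 and 0 with erlotinib, 11 of 17 and 0 with carboplatin plus paclitaxel, and 5 of 17 and 0 with the antibodies. Of all genes, 19.1%, 4.73%, 15.5% and 7.36% were higher with these treatments in turn, and 21%, 5.25%, 11.2% and 6.22% lower. H2-M2, a non-classical gene, was higher with each treatment: 1.27 ± 0.21 with trametinib, 1.11 ± 0.23 with erlotinib, 0.97 ± 0.26 with carboplatin plus paclitaxel and 1.73 ± 0.27 with the antibodies (adjusted p = 5.37e-07, 0.000699, 0.00294 and 2.02e-06). H2-M3 was 0.55 ± 0.10 with carboplatin plus paclitaxel (adjusted p = 6.49e-05) and 0.34 ± 0.10 with the antibodies (0.0138). Of 7 chaperones and trimming enzymes of peptide loading, 0 were higher with any of the 4 treatments. With trametinib Hspa5 (-0.15 ± 0.05) and Pdia3 (-0.09 ± 0.03) were lower, general chaperones of the endoplasmic reticulum. With so few genes, the counts of this list and the next cannot be set apart from the shares of all genes. Of 11 constitutive proteasome and PA28 genes, 0 were higher and 1 lower with trametinib, 0 and 1 with erlotinib, 2 and 1 with carboplatin plus paclitaxel and 2 and 0 with the antibodies. The 2 higher genes were the same in both: Psme2, a PA28 subunit that interferon induces (0.37 ± 0.10 with carboplatin plus paclitaxel and 0.29 ± 0.08 with the antibodies), and Psmb4, a constitutive proteasome subunit (0.33 ± 0.09 and 0.31 ± 0.09). The lower gene was Psme3, the subunit of the nuclear PA28 form, at -0.14 ± 0.03 with trametinib, -0.11 ± 0.03 with erlotinib and -0.18 ± 0.04 with carboplatin plus paclitaxel.

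Of 20 regulators measured, 2 were higher and 4 lower with trametinib, 6 and 4 with carboplatin plus paclitaxel, 1 and 0 with the antibodies and 0 and 0 with erlotinib. With trametinib these shares are no higher than those of all genes (19.1% and 21%). For the other 3 treatments, all genes had 15.5% and 11.2% with carboplatin plus paclitaxel, 7.36% and 6.22% with the antibodies and 4.73% and 5.25% with erlotinib. Irf1, an interferon-induced factor that binds class I promoters, was 0.13 ± 0.06 with trametinib (adjusted p = 0.0894), 0.26 ± 0.08 with carboplatin plus paclitaxel (0.0131) and 0.22 ± 0.08 with the antibodies (0.0446). Irf8, a factor of myeloid and B cells, was lower with trametinib (-0.48 ± 0.08) and higher with carboplatin plus paclitaxel (0.48 ± 0.13). Also called higher with carboplatin plus paclitaxel were Stat2 (0.30 ± 0.10), Irf9 (0.24 ± 0.08) and Ifngr1 (0.19 ± 0.07). The 4 regulators lower with carboplatin plus paclitaxel were the 3 subunits of NF-Y, Nfya (-0.19 ± 0.04, adjusted p = 0.000929), Nfyb (-0.11 ± 0.04, 0.0161) and Nfyc (-0.13 ± 0.05, 0.0248), and Irf2 (-0.18 ± 0.05, 0.0087), another interferon regulatory factor. With trametinib Nfya (-0.14 ± 0.04) and Nfyb (-0.13 ± 0.04) were lower, as was Ifnar1 (-0.13 ± 0.03), a chain of the type I interferon receptor. Other interferon-induced genes were higher in 12 of 16 with trametinib, 15 of 17 with carboplatin plus paclitaxel and 4 of 17 with the antibodies, and with erlotinib 1 of 16 was lower. Cd274, which encodes PD-L1, was 0.69 ± 0.12, 0.91 ± 0.15 and 0.71 ± 0.13 in the first 3.

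Markers of other cells moved with some of these contrasts. Of all genes, 19.1% were called higher and 21% lower with trametinib, and 15.5% and 11.2% with carboplatin plus paclitaxel. The shares were 7.36% and 6.22% with the antibodies, and 13.3% and 13.2% with trametinib against erlotinib. Of 12 markers of cytotoxic T and NK cells, 9 were higher with carboplatin plus paclitaxel, with a median summed level of 19.8 CPM (0.618 to 529) against 10.9 (0.398 to 273) untreated. With the antibodies 5 were higher (10.3 CPM, 1.03 to 706, against 6.96, 0.398 to 273), with trametinib 2 (13.5 CPM, 0.993 to 127, against 10.9), and with trametinib against erlotinib 6 (12.0 CPM, 0.381 to 127, against 6.94, 0.327 to 159). Of the general leukocyte markers, 2 of 4 were lower with trametinib than untreated and 4 of 4 lower than with erlotinib. With carboplatin plus paclitaxel 3 of 4 were higher. With trametinib, all 5 fibroblast, 2 of 4 adipocyte and 1 of 4 B and plasma cell markers were higher. The last 2 counts, like the 2 of 12 cytotoxic markers, cannot be set apart from the 19.1% of all genes higher with trametinib. All 6 endothelial and all 5 erythrocyte markers were lower. So were 3 of 9 macrophage, 3 of 7 dendritic cell and 2 of 7 epithelial markers, counts that cannot be set apart from the 21% of all genes. With carboplatin plus paclitaxel, 6 of 9 macrophage, 4 of 4 B and plasma cell and 3 of 5 neutrophil markers were higher. So were 4 of 6 endothelial, 2 of 5 fibroblast and 2 of 7 dendritic cell markers, and 2 of 5 erythrocyte markers were lower. With the antibodies, 3 of 5 neutrophil markers were higher and all 5 skeletal muscle markers lower, with a median of -3.18. Of the adipocyte markers, 2 of 4 were lower there. None of the markers was at 0 in every tumour of both arms of these comparisons, and single arms were not checked. The part of these cells in the levels of the class I genes was not tested.

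The size of the response differed between models (edgeR interaction test) for 4 members with trametinib, 5 with erlotinib, 5 with carboplatin plus paclitaxel and 9 with the antibodies, beside 82.3%, 77.5%, 70.2% and 54.7% of genes. Within single models, 160 pairs of member and model could be tested for each of trametinib, erlotinib and carboplatin plus paclitaxel, and 120 for the antibodies. These include E0771, whose 1 untreated tumour was assumed to vary like the other groups and which gave no call. Carboplatin plus paclitaxel gave 21 pairs higher and 0 lower, against 5.55% and 4.83% of all genes and models. Trametinib gave 7 higher and 0 lower (4.2% and 4.8%), erlotinib 2 higher and 1 lower (3.51% and 3.62%), and the antibodies 8 higher and 6 lower (2.11% and 1.91%). Of the member pairs, 13.1% were higher with carboplatin plus paclitaxel, 4.38% with trametinib, 1.25% with erlotinib and 6.67% with the antibodies. The trametinib share is near that of all genes, and the erlotinib share is below it. Leaving out 1 replicate of every group moved these counts to between 3 and 14 for trametinib and between 1 and 13 for the antibodies. The calls lay in a few models. With carboplatin plus paclitaxel, 16 of the 21 were in 2153 and KPB25L. Without both models the comparison over models called 4 of the members, a setting chosen after seeing the data. The untreated tumours of 2153 and KPB25L carry no flag for this treatment in the labels, which do not state what the flags mean.

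**Figure D4:**
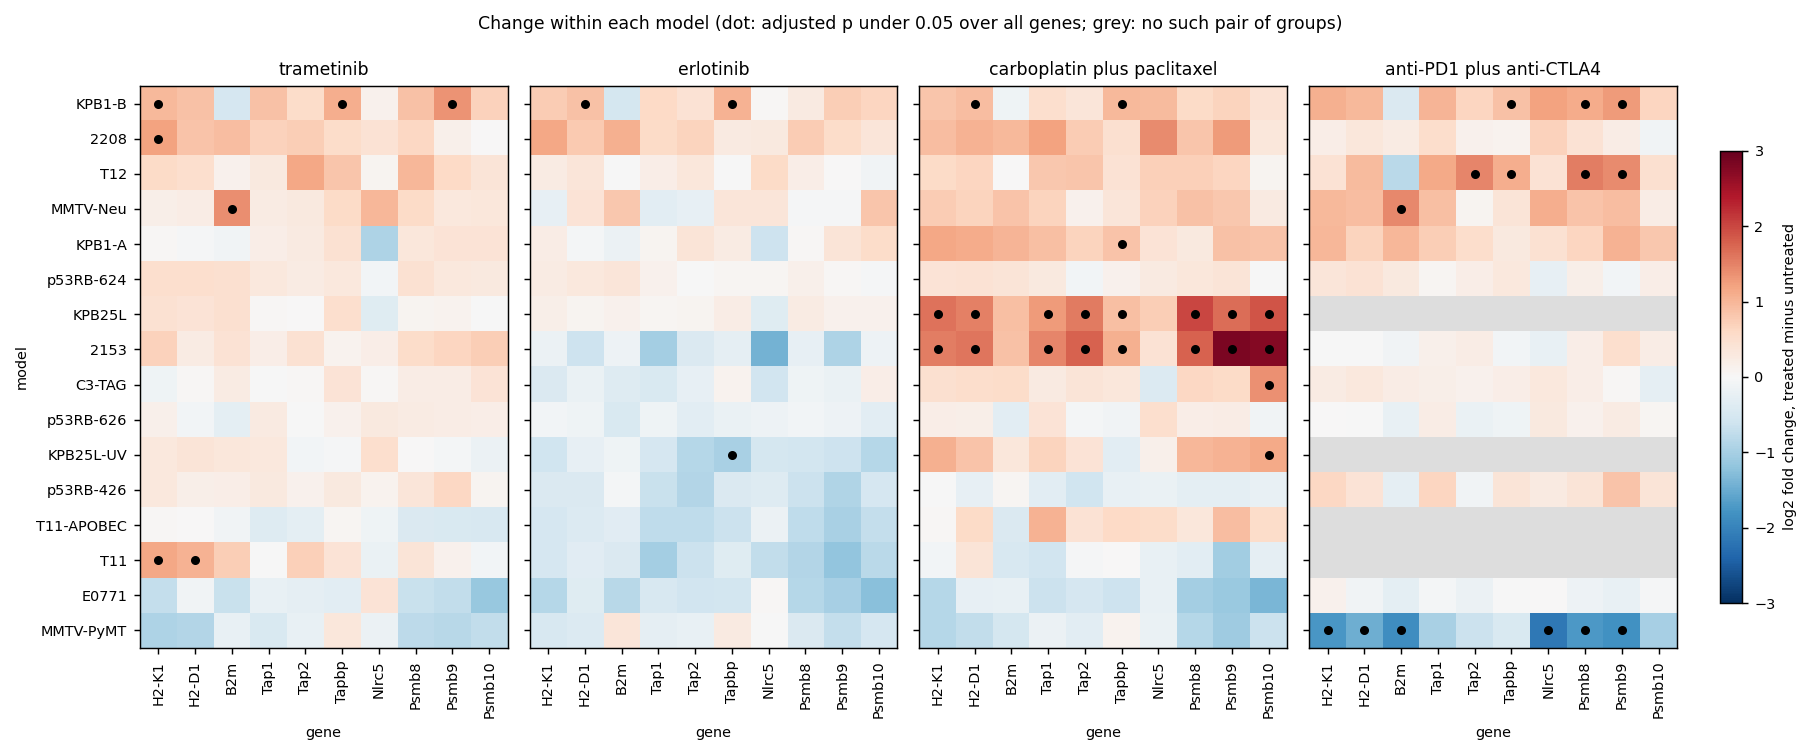
Log2 fold change of each gene within each model for the 4 treatments, on a scale from -3 to 3 (dot, adjusted p under 0.05; grey, no such pair of groups). The row of MMTV-PyMT is blue with the antibodies, with 6 dots, and the rows of 2153 and KPB25L are red with carboplatin plus paclitaxel, with 8 dots each.

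KPB25L with carboplatin plus paclitaxel had 8 of 10 members higher, with a median of 1.54 on the log2 scale over the members, beside 9.82% of genes. With replicate 2 of every group left out, 0 members were called. H2-K1 was 479, 235 and 361 CPM in untreated tumours and 878, 1565 and 878 CPM in treated ones. Psmb8 was 56.7, 21.1 and 49.9 CPM against 104, 276 and 136 CPM (log2 fold change 2.01 ± 0.42, adjusted p = 0.000164), and Psmb10 50.4, 20.3 and 33.4 CPM against 99.7, 189 and 97.5 CPM (1.89 ± 0.40, 0.000223). All treated tumours were above all untreated ones for these 3 genes. The share of all genes that separate this fully was not computed, here or for the other groups said not to overlap. Nlrc5 was 15.4, 3.95 and 16.4 CPM against 20.1, 18.6 and 21.0 CPM and was not called, nor was B2m. The summed cytotoxic markers were 43.5 to 92.7 CPM treated and 9.65 to 16.0 CPM untreated, with 8 of 12 called higher. The untreated libraries held 19.5 M to 22.3 M counts and the treated ones 93.1 M to 116 M, and their numbers lay 1502 apart. The part of either was not tested.

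2153 with carboplatin plus paclitaxel also had 8 members higher, with a median of 1.57, beside 12% of genes. With replicate 3 of every group left out, 0 of them were called, and 144 genes in all were called in place of 5869. Psmb9 was 22.5, 18.7 and 41.1 CPM untreated and 33.7, 102 and 452 CPM treated (2.84 ± 0.51, adjusted p = 9.06e-06). Psmb10 was 24.4, 21.8 and 36.5 CPM against 32.3, 84.7 and 437 CPM (2.74 ± 0.41, 1.58e-07). The groups overlapped, with 1 treated tumour far above the others and 1 within the untreated range. Nlrc5 differed less, at 29.1, 34.3 and 53.4 CPM against 37.2, 51.8 and 69.8 CPM, and was not called. The summed cytotoxic markers were 5.04 to 93.6 CPM treated and 1.70 to 16.1 untreated, with 10 of 12 higher, and 3 of 4 leukocyte markers were higher. The part of these cells in the class I levels was not tested.

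MMTV-PyMT with the antibodies had 6 members lower and 0 higher, with a median of -1.59, beside 4.95% of genes lower. With replicate 1, 2 or 3 of every group left out, 0, 3 and 7 members were lower. B2m was 1226, 439 and 299 CPM untreated and 101, 158 and 283 CPM treated (-1.86 ± 0.40, adjusted p = 0.00054). H2-K1 was 2121, 885 and 577 CPM against 309, 302 and 456 CPM (-1.75 ± 0.41, 0.00175). Nlrc5 was 37.3, 11.1 and 8.28 CPM against 2.07, 4.68 and 6.07 CPM (-2.14 ± 0.52, 0.00252). The groups did not overlap for these genes, though the lowest untreated and highest treated tumours lay close. Psmb8 (-1.71 ± 0.41), Psmb9 (-1.82 ± 0.50) and H2-D1 (-1.47 ± 0.41) were lower too. The arms were 6 library numbers apart, the summed cytotoxic markers were 3.92 to 5.68 CPM treated and 5.39 to 6.66 CPM untreated, and 0 cytotoxic or leukocyte markers were called. The other 3 treatments also had medians below 0 in this model (-0.60, -0.34 and -0.59 for trametinib, erlotinib and carboplatin plus paclitaxel) with 0 calls, against the same 3 untreated tumours.

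T12 with the antibodies had Psmb8, Tap2, Psmb9 and Tapbp higher, beside 8.52% of genes. With replicate 1 or 2 of every group left out 0 members were called, without replicate 3 there were 6, and a fit for T12 alone gave 3 higher and 1 lower. Psmb8 was 48.1, 61.4 and 125 CPM untreated and 231, 255 and 198 CPM treated (1.55 ± 0.41, adjusted p = 0.00307). Tap2 was 34.8, 41.5 and 81.3 CPM against 151, 156 and 126 CPM (1.46 ± 0.36, 0.00134). The groups did not overlap in either. B2m had the opposite sign and was not called, at 1134, 1614 and 1882 CPM against 895, 1057 and 696 CPM. Of the markers, 2 of 4 leukocyte and 3 of 7 epithelial ones were higher here, and the library numbers lay 756 apart.

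**Figure D5:**
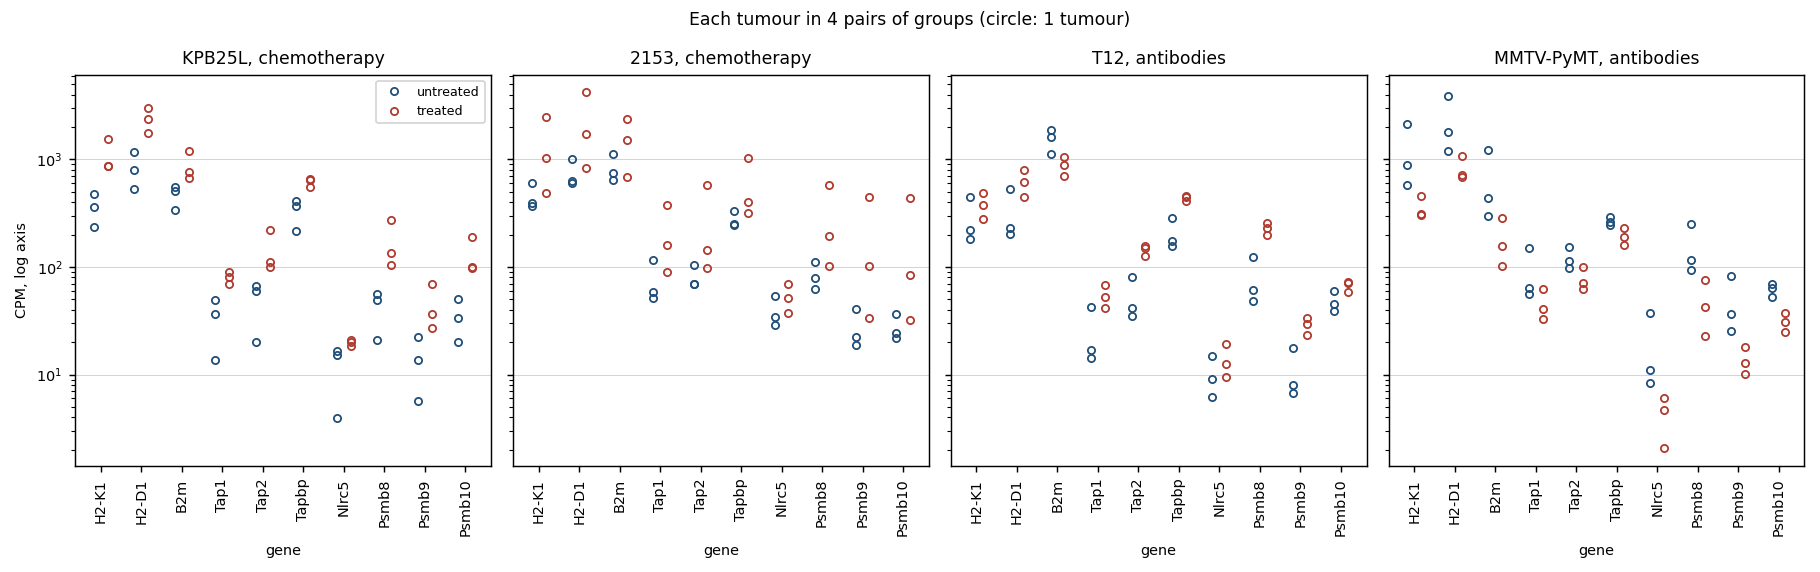
CPM of each gene in every tumour of 4 pairs of groups, on a log axis (circle, 1 tumour; colours, untreated and treated). KPB25L and 2153 received carboplatin plus paclitaxel, T12 and MMTV-PyMT the antibodies. For the 6 called genes of MMTV-PyMT the treated tumours lie below the untreated ones, B2m at 101 to 283 against 299 to 1226 CPM, and for the 8 called genes of KPB25L above them, H2-K1 at 878 to 1565 against 235 to 479 CPM. These genes were picked by their calls, so the separation adds nothing to them. The share of all genes that separate this way was not computed.

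In MMTV-Neu only the light chain was called, with trametinib and with the antibodies. All 10 members had log2 changes above 0 with both, with medians of 0.33 and 0.91. B2m was 947, 1687 and 612 CPM untreated, 4241, 2245 and 2006 CPM with trametinib (1.39 ± 0.40, adjusted p = 0.00438) and 1760.5, 1884 and 5179.9 CPM with the antibodies (1.44 ± 0.40, 0.0257). Neither treated group overlapped the untreated one, and no other member was called in either, beside 10.6% and 0.899% of genes higher. B2m was not called with trametinib without replicate 1 of every group (0.87, adjusted p = 0.241), nor with the antibodies without replicate 1 (1.62, 0.128) or 3 (0.47, 1). In KPB1-B, Tapbp was higher with all 4 treatments against the 6 untreated tumours: 52.8 to 215 CPM untreated against 256 to 349 with trametinib (1.09 ± 0.22), and 1.05 ± 0.22, 0.97 ± 0.22 and 0.89 ± 0.22 with erlotinib, carboplatin plus paclitaxel and the antibodies. Of all genes 9.58%, 13.4%, 8.91% and 1.85% were higher in these 4 comparisons. Against only the 3 untreated tumours nearest in library number, Tapbp remained called with trametinib (0.87, adjusted p = 0.0306) and erlotinib (0.82, 0.0213), and had 0.74 (0.0556) and 0.66 (0.417) with the other 2. Leaving out replicate 2 or 3 of every group also ended the call with the antibodies (0.86 and 0.58, adjusted p = 0.163 and 0.388). The other 6 calls of that model were not called in this setting. Tapbp in KPB1-A with carboplatin plus paclitaxel rested on 1 tumour, at 401, 117 and 103 CPM against 104, 115 and 125 CPM, beside 8.03% of genes. KPB25L-UV gave the 1 lower call of erlotinib, Tapbp at 598, 589 and 411 CPM untreated and 379.6, 179 and 249.5 CPM treated (-0.98 ± 0.27, adjusted p = 0.0171), without overlap and 14 library numbers apart, beside 1.29% of genes lower. Without replicate 2 of every group, Tapbp in KPB25L-UV had -0.67 (adjusted p = 0.825).

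Immunoproteasome subunits were also set against the constitutive subunits they replace, as ratios within each tumour that do not depend on library scaling. With trametinib the ratio of Psmb8 to Psmb5 was higher in 15 of 16 models (mean log2 difference 0.42 ± 0.09 SE; exact two-sided sign-flip permutation test over models, p = 0.000153, adjusted p = 0.00183 over 12 tests). It was highest in T12 (1.20) and was -0.08 in T11-APOBEC. Psmb8 itself was called higher with trametinib, in 12 of 16 models, while Psmb5 was -0.11 ± 0.06 and not called. Both genes entered the change of the ratio. In MMTV-PyMT the ratio rose with Psmb8 at -0.69 and Psmb5 at -1.45. In E0771 and KPB25L-UV Psmb8 was also lower (-0.66 and -0.01), and Psmb5 more so (-0.68 and -0.31). In the 8 near models the ratio was 0.31, with exact permutation p = 0.0234 (adjusted p = 0.281). The smallest p this test can give is larger with 8 models than with 16, so the missing call there decides little. The other 11 ratios did not pass: Psmb9 to Psmb6 was 0.18 ± 0.08 with trametinib, -0.26 ± 0.14 with erlotinib, 0.34 ± 0.17 with carboplatin plus paclitaxel and 0.37 ± 0.21 with the antibodies, each with an adjusted p of 0.186 by the same exact test.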

How the data were processed

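Poly(A) RNA of 309 mouse mammary tumours was measured by RNA-seq. The authors deposited estimated counts per gene, made with STAR and Salmon on mm10, per the submitters' processing notes, which also name SAMtools and Picard, without versions. Of these values 8.35% were not whole, and they were rounded. The authors also deposited a normalized signal table, which equals each count divided by its library's upper quartile times 1000; it served as an alternative only. Groups came from the labels.

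Counts were scaled by TMM, filtered with filterByExpr and tested with edgeR 4.0.16 (R 4.3.3), quasi-likelihood, with the model as a factor; changes within models came from 1 fit over all tumours, 28928 genes and 100 groups. Standard errors are the log2 fold change divided by the root of F. Log2 CPM used a prior count of 2. The fits were tested on simulated data. Alternatives used DESeq2 1.42.0, limma 3.58.1 (pseudocount 1 on the normalized table), upper-quartile scaling, no low-count filter, near models, 1 difference per model, and each model or replicate left out. The named genes are the 10 members, the 8 genes most like them, and from each pathway list those with the 3 smallest p-values, besides Irf1, Ifng and H2-Ea, and a gene that the rule names is not reported here; Psmb5, Ptprc, Cd8a, Epcam, Rfx5 and others outside this rule were chosen with values known. The members and lists were chosen with earlier results of these data known. Library totals of 12.1 M to 226 M set the counting error, which was not compared between members.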

Additional observations from a re-analysis of the deposited data

Results flagged for a closer look

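The response to treatment differed between models for 23 combinations of member and treatment (edgeR quasi-likelihood F-test of the interaction, adjusted over all genes), where most genes did so. With trametinib 82.3% of genes differed, and the members were H2-K1 (adjusted p = 0.00188), H2-D1 (0.0232), Psmb8 (0.043) and Psmb10 (0.0168). With erlotinib 77.5% did, and the members were H2-K1 (0.0228), Tap2 (0.0153), Tapbp (7.49e-05), Psmb9 (0.0277) and Psmb10 (0.000484). With carboplatin plus paclitaxel 70.2% did, and the members were Tap2 (0.0239), Tapbp (0.0335), Psmb8 (0.00318), Psmb9 (0.00335) and Psmb10 (4.54e-05).

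With the antibodies 54.7% of genes differed between models, and 9 of the 10 members did: H2-K1 (adjusted p = 0.0043), H2-D1 (0.0113), B2m (0.00838), Tap2 (0.00357), Tapbp (0.0147), Nlrc5 (0.0251), Psmb8 (0.000878), Psmb9 (0.00266) and Psmb10 (0.0109), by the same edgeR test. The median over members ran from -1.59 in MMTV-PyMT to 1.02 in T12.

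Single tumours stood far from the rest of their group for Tap2 on 2 occasions among 50 tested. This is no more than chance gives, at about 1 in 20. The 50 are also not independent, since the members move together. The highest of 6 untreated KPB1-B tumours had 74.1 CPM, the next 51.0 and the lowest 46.5. The highest of 4 untreated T11 tumours had 103 CPM, the next 39.7 and the lowest 29.4.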

How the results depend on the processing

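No paired analysis was possible because the labels give no replicate numbers that tie tumours of different arms together; the numbers used are names in accession order. Counts of members called moved as follows. For trametinib (5), 1 difference per model gave 1, near models 2, no term for the model 1, and only the untreated tumours flagged in the labels 2; leaving out a model or replicate gave 3 to 8. For carboplatin plus paclitaxel (9), the same settings gave 0, 0, 2 and 2, and leaving out a model or replicate 1 to 9. Leaving out 2153 and KPB25L together, chosen after seeing the data, gave 4. In 2153, KPB25L and T11 no untreated tumour is flagged for this treatment, so the flagged setting left these models out. For the antibodies (2), DESeq2 gave 4, and 1 difference per model, near models and no term for the model 0 each; leaving out a model or replicate gave 0 to 9. For trametinib against erlotinib (9), 1 difference per model gave 3, no term for the model 0, and leaving out 1 model or replicate 6 to 10. Erlotinib against untreated and the antibodies against carboplatin plus paclitaxel had 0 under each setting run.

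Within models, a fit for each model alone gave 13 pairs for trametinib (7) and 5 for erlotinib (3); leaving out a replicate gave 3 to 14, 1 to 3, 15 to 23 for carboplatin plus paclitaxel (21) and 1 to 13 for the antibodies (14). Upper-quartile scaling gave 7 members whose trametinib response differed between models (4), and near models 0 called ratios for trametinib (1). With fewer models the exact test of the ratios cannot give as small a p, so that last count decides little. Among called values, signs reversed for Psmb10 with carboplatin plus paclitaxel (-0.013), Tap1 (-0.023) and Tapbp (-0.014) with the antibodies, all in near models, which hold fewer tumours, and for Tapbp in KPB1-A with carboplatin plus paclitaxel (-0.13 without replicate 1, 1.24 without replicate 3). The cause of the other moves was not tested. Of the values of single members in the pooled comparisons, 1477 kept their side of the threshold, 131 lost the call, 39 gained it and 3 reversed. With the ratios, 94 values called in neither setting changed sign, 58 of them with a model or replicate left out. Of the called pairs within models 222 stayed called, 92 lost the call and 1 reversed. The difference among untreated models held for 10 of 10 members under each setting run.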
